A study of Arabidopsis thaliana with 14 samples.

Results

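Tetraspanins are small proteins that cross the membrane several times and gather with partner proteins into patches of the plasma membrane and of endosomes. In plants they have been tied to the patterning of organs, to plasmodesmata and to the vesicles that cells release. The genes described are TET1 to TET10 of Arabidopsis thaliana, chosen by family name, and a gene was measured where the array annotation gave it a probe set of its own. Of the 10 genes 9 had such a probe set, among 13513 of that kind on the array. TET1 (AT5G46700), also called TRN2 or TORNADO 2 and needed for the patterning of leaves and roots, had none and was not analysed here. The family was chosen with values of these same arrays known. Which comparison drew attention to it is not recorded, and it was taken here to be Col-0 after 6 h of NAA against 6 h of mock, in which 5 of the 6 members bright enough to test had been lower. Values that involve either of those 2 groups are therefore given as descriptions without a test.

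The 14 ATH1 arrays fall into 7 groups of 2 biological replicates. The mutant slr-1 carries a mutation in SLR/IAA14, a repressor of auxin responses, and forms no lateral roots. It was sampled after 0, 2 and 6 h of 10 µM NAA, a synthetic auxin. The wild type Col-0 was sampled after the same 3 times of NAA and after 6 h of mock treatment. All seedlings of both genotypes, mock included, had germinated on medium with 10 µM NPA, which blocks the transport of auxin, and were 3 days old at transfer. RNA came from the root between meristem and hypocotyl. Each time point pooled segments of about 1500 seedlings, so fewer cells of a type and less RNA per cell cannot be told apart. Mock treatment was analysed here for Col-0 at 6 h alone, so elsewhere the effects of NAA and of the hours since transfer cannot be told apart.

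The values are MAS5 signals, an unlogged intensity per probe set whose trimmed mean was the same on all arrays (1000.1). The free-text descriptions of both mock samples name a tissue of another organism, while their titles, source names and protocols name the Col-0 root segment. On slr-1 0 h replicate 2 the GAPDH probe sets gave a 3'/5' ratio of 1.16, where the other 13 arrays gave 0.546 to 0.742. The highest signal on slr-1 6 h replicate 2 was 29349.7, where the others reached 58837.1 or more. Of 5 auxin and lateral root genes listed as a check of the treatment, LBD16, LBD29 and PUCHI had a probe set, and all 3 rose in Col-0 after 2 h of NAA (LBD29 by 6.30 on the log2 scale, SE 0.40, limma adjusted p = 2.55e-07). IAA14 had none, so the mutated gene was not analysed here. Of the cell type markers listed, only EXPA7 of root hairs, CO2 (AT1G62500) of the cortex and LHCB4.2 of photosynthetic tissue had a probe set. CO2 did not pass the filter on low signals. In Col-0 after 2 h LHCB4.2 fell by 2.78 (SE 0.34, limma adjusted p = 8.21e-05), to 222 ± 43.6, against 1629 ± 91.4 at 0 h (SD, n = 2), and its part in the tetraspanin changes was not tested.

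Of the 9 measured genes, TET2, TET3, TET5, TET6, TET7 and TET8 passed the filter, for which both arrays of at least 1 group had to exceed a signal of 218.1. Each of these 6 exceeded that level on all 14 arrays, so none passed through 1 group alone. TET4, TET9 and TET10 did not pass and were not tested.

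**Figure D1:**
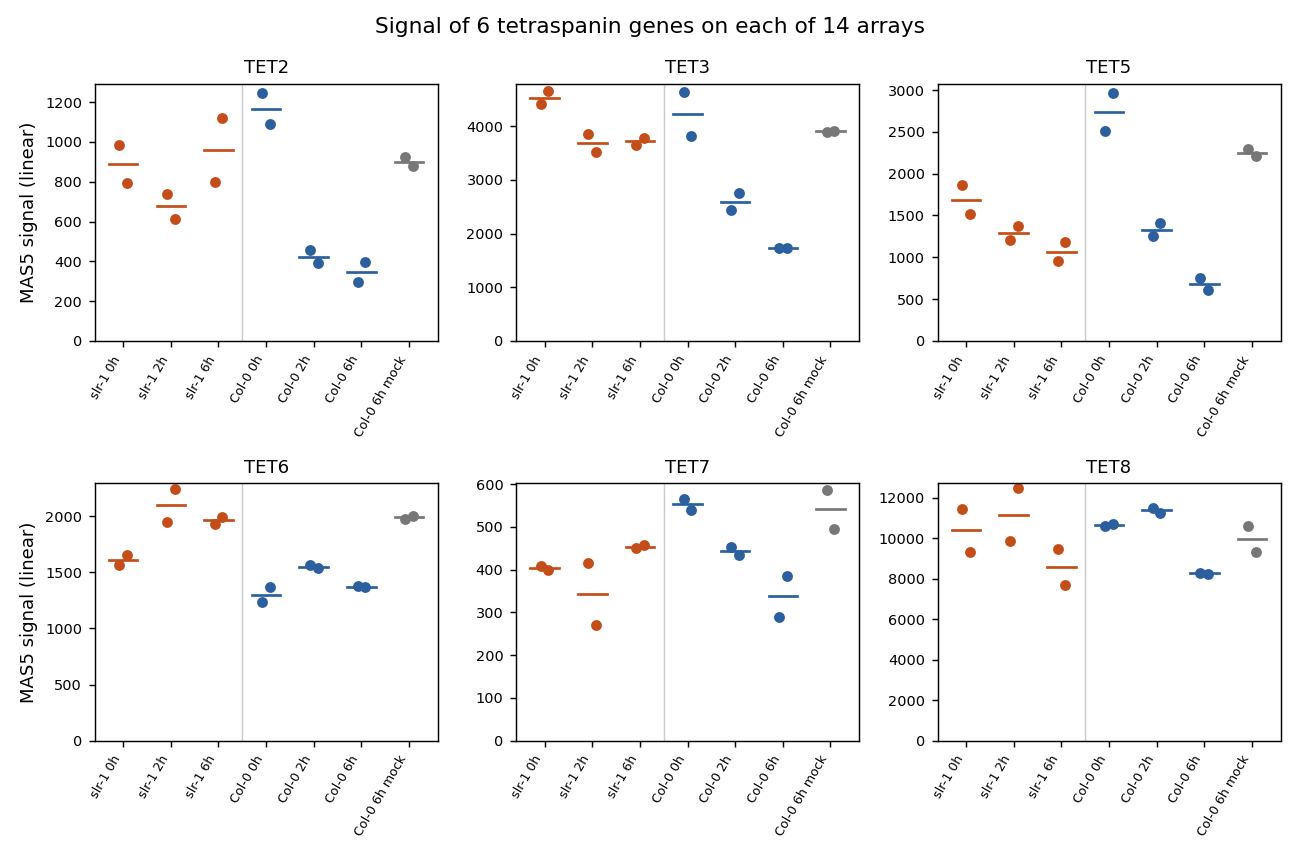
MAS5 signal (linear axis from 0, a scale of its own for each gene) of the 6 tetraspanin genes that passed the filter, with 1 point per array and a line at the mean of each group. TET2, TET3 and TET5 were low in Col-0 after 2 h and 6 h of NAA, while TET8 stayed between 7683.9 and 12476.1 on all arrays. TET5 was also low in slr-1 on NAA, with means of 1290 at 2 h and 1069 at 6 h, against 1330.5 in Col-0 at 2 h.

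The first question was which tetraspanin genes differed in the wild type between 2 h of NAA and 0 h, a comparison without a mock group. TET2, TET3 and TET5 fell, and TET6, TET7 and TET8 did not pass the test. TET2 (AT2G19580) had signals of 455 and 391.1 after 2 h, against 1245.6 and 1088.8 at 0 h. Both arrays at 2 h lay below both at 0 h. On the scale of log2(signal + 18.9), TET2 fell by 1.42 (SE 0.21, limma adjusted p = 3.85e-04), a level 2.68-fold lower. Among all tested probe sets 1.17% had a lower change than TET2.

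TET5 (AT4G23410) and its close relative TET6 are known to act redundantly in restraining the growth of leaves and roots. TET5 had signals of 1256.4 and 1404.6 after 2 h in Col-0, against 2512 and 2958.9 at 0 h. The groups did not overlap, and TET5 fell by 1.03 (SE 0.17, adjusted p = 8.88e-04). TET6 (AT3G12090) did not share that fall. Its signals were 1564.6 and 1536.2 after 2 h, against 1232.4 and 1363.9 at 0 h, a log2 difference of 0.25 (SE 0.13, adjusted p = 0.201). The TET6 arrays did not overlap either, in the upward direction.

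TET3 (AT3G45600), a protein found at plasmodesmata, the channels between plant cells, had 2432.7 and 2753.7 after 2 h, against 4628.7 and 3814.4 at 0 h. It fell by 0.70 (SE 0.13, adjusted p = 0.00229), with both arrays at 2 h below both at 0 h. TET7 (AT4G28050) had 452.3 and 434.7, against 564.7 and 540.1, a difference of -0.31 (SE 0.23, adjusted p = 0.411). The arrays of TET7 were apart, but the difference was within the error that the fit allows. TET8 (AT2G23810), widely used as a marker of plant exosomes, had 11510 and 11256.2, against 10626.3 and 10732 (0.09, SE 0.16, adjusted p = 0.756). A change of TET8 at 2 h was thus not detectable with 2 arrays a group, although its arrays did not overlap. All 6 members were without overlap in this comparison, as were 61.3% of all tested probe sets.

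In that comparison 3 of 6 tested members were lower and 0 higher, where 7.85% of the 14882 tested probe sets were lower and 9.75% higher. The median change was -0.50 over the 6 members and -0.05 over all probe sets. The family was taken to be chosen on lower values after 6 h of NAA in Col-0. Genes lower at 6 h may be lower at 2 h of the same treatment too. The count and the median are therefore not independent evidence about the family. The 3 falls were found again under each of 23 other settings, 14 of them with 1 array left out. The adjusted p of TET2 ran from 3.05e-04 to 0.00674 over these settings, that of TET5 from 7.29e-04 to 0.0150 and that of TET3 from 0.00161 to 0.0362.

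**Figure D2:**
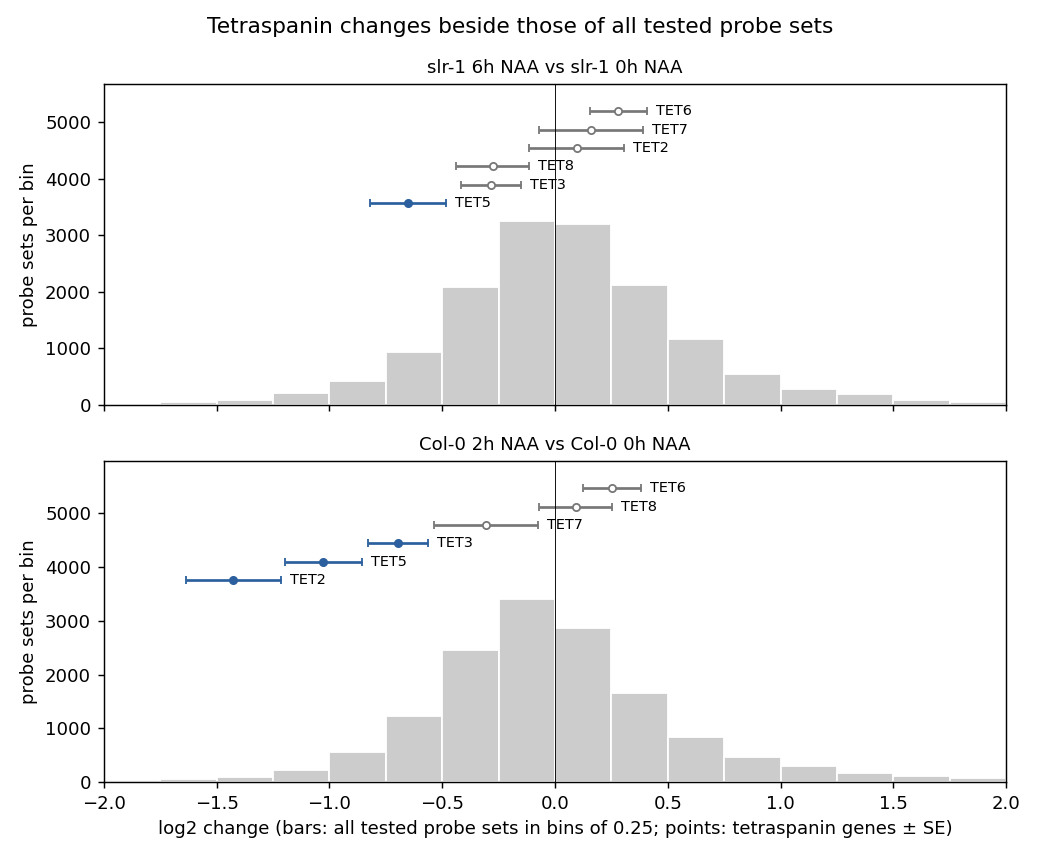
Log2 change of the 6 tetraspanin genes (points with SE, filled where the adjusted p is under 0.05) above a histogram of the change of all tested probe sets, for slr-1 6 h against 0 h (top) and Col-0 2 h against 0 h (bottom). TET2, TET5 and TET3 lie to the left at -1.42, -1.03 and -0.70 in Col-0, and in slr-1 only TET5, at -0.65, is filled.

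The second question was whether the mutant showed these changes. After 2 h of NAA in slr-1, 0 of 6 members passed limma's test in either direction, where 12.3% of all probe sets did. An unadjusted p under 0.05 was found for 3, TET3 and TET5 with lower values and TET6 with higher ones. The share of all probe sets under that unadjusted cut was not computed, here or where such counts are given below. Nothing is therefore read from these counts. The members under the cut were also 3 for Col-0 2 h against 0 h, the same 3 that passed there. They were 3 for slr-1 6 h against 0 h (TET3, TET5 and TET6). Between the genotypes they were 2 at 0 h (TET5 and TET6) and 3 at 2 h (TET2, TET3 and TET6). TET2 had 739.6 and 611.9 in slr-1 at 2 h, against 984.4 and 796.1 at 0 h, a difference of -0.39 (SE 0.21, adjusted p = 0.269). TET5 had 1211.4 and 1368.7, against 1864.6 and 1513.5 (-0.38, SE 0.17, adjusted p = 0.172). For TET2 and TET5 the later arrays all lay below the earlier ones, with 95% intervals of -0.84 to 0.07 and -0.75 to -0.01.

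TET3 had 3850.8 and 3522.1 in slr-1 at 2 h, against 4419.7 and 4647.7 at 0 h (-0.30, SE 0.13, adjusted p = 0.163). TET6 had 1951.1 and 2240.3, against 1564.6 and 1655.5 (0.37, SE 0.13, adjusted p = 0.0746). TET7 differed by -0.25 and TET8 by 0.10, and the arrays of both genes overlapped between the times. In all 4 of 6 members had no overlap at 2 h in slr-1, where 52.9% of all probe sets had none.

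The difference of response itself, slr-1 minus Col-0, was tested at 2 h. For TET2 it was 1.04 (SE 0.30, 95% interval 0.39 to 1.68, adjusted p = 0.0814), for TET5 0.65 (SE 0.24, adjusted p = 0.179) and for TET3 0.40 (SE 0.19, adjusted p = 0.297). Over the 23 other settings the adjusted p of TET2 ran from 0.0536 to 0.271. None of the 6 members passed with limma, where 3.18% of all probe sets did, and TET2 and TET5 were the 2 with an unadjusted p under 0.05. For TET6 it was 0.12 (SE 0.18), for TET7 0.05 (SE 0.33) and for TET8 0.01 (SE 0.23), each smaller than its SE. A different response of the mutant at 2 h was therefore not established for any single member. The Col-0 2 h arrays enter these differences, so they are not independent of how the family was chosen.

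After 6 h of NAA in slr-1, TET5 was lower than at 0 h and the other 5 tested members did not pass. TET5 had 954.2 and 1183.4 at 6 h, against 1864.6 and 1513.5 at 0 h. The arrays did not overlap, and TET5 fell by 0.65 (SE 0.17, adjusted p = 0.0210). That call ended without slr-1 0 h replicate 1 (-0.50, adjusted p = 0.119) and without slr-1 6 h replicate 1 (-0.50, adjusted p = 0.173), but not without slr-1 0 h replicate 2 (-0.80, adjusted p = 0.0235) or slr-1 6 h replicate 2 (-0.80, adjusted p = 0.0299). It also ended with only the groups of the comparison in the fit (adjusted p = 0.0722). In this comparison LHCB4.2 fell by 1.76 (SE 0.34, adjusted p = 0.00402).

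TET2 had 800.3 and 1121.7 in slr-1 at 6 h, against 984.4 and 796.1 at 0 h. These arrays overlapped, and the difference of 0.10 (SE 0.21, adjusted p = 0.811) had a 95% interval of -0.36 to 0.55. TET3 had 3657.5 and 3782.8, against 4419.7 and 4647.7 (-0.28, SE 0.13, adjusted p = 0.173). TET6 had 1932.1 and 1989.3, against 1564.6 and 1655.5 (0.28, SE 0.13, adjusted p = 0.165). For TET3 and TET6 the groups were apart on the arrays without passing the test.

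TET7 had 451 and 456.7, against 409.7 and 399.1 (0.16, SE 0.23, adjusted p = 0.698), and TET8 had 9491.6 and 7683.9, against 11457.9 and 9336.4 (-0.28, SE 0.16, adjusted p = 0.290). The arrays of 4 of 6 members did not overlap, nor did those of 53.7% of all probe sets. By limma's test 1 of 6 members was lower in slr-1 at 6 h and 0 higher, with 6.26% of all probe sets lower and 7.96% higher. The median change was -0.09 over the members and 0.02 over all probe sets. Between 2 h and 6 h in slr-1 none of the 6 passed with limma (1.22% of all probe sets did), and 2 had an unadjusted p under 0.05, TET2 at 0.48 (adjusted p = 0.296) and TET8 at -0.38 (adjusted p = 0.288).

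**Figure D3:**
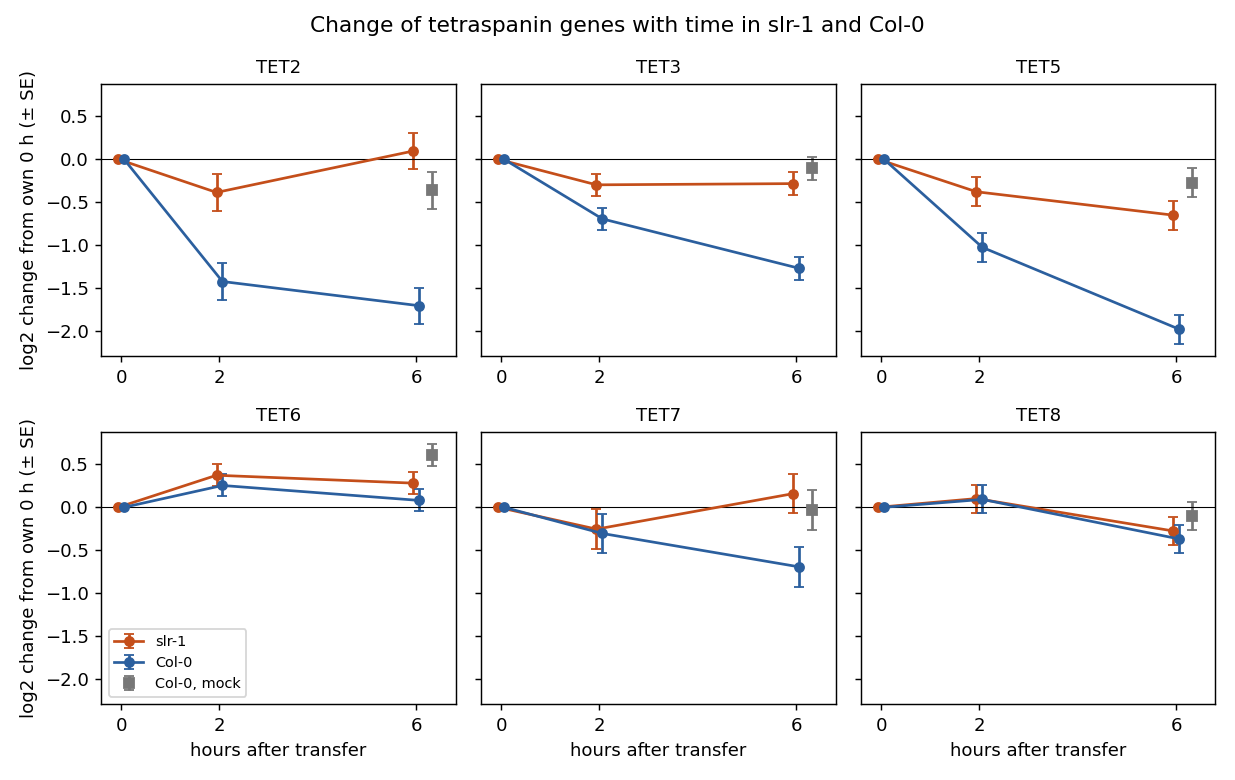
Log2 change from the same genotype's 0 h arrays (± SE from the fit, n = 2 arrays a group) after 2 and 6 h of NAA in slr-1 (orange) and Col-0 (blue), with the Col-0 6 h mock arrays as grey squares drawn just right of 6 h. The changes of TET2, TET3 and TET5 from 0 h stand lower in Col-0 than in slr-1 at both times, while the lines of TET8 lie together at -0.28 in slr-1 and -0.37 in Col-0 after 6 h.

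The levels of the 2 genotypes were also compared at the same time. Before NAA, TET5 was the one member that differed. It had 1864.6 and 1513.5 in slr-1 at 0 h, against 2512 and 2958.9 in Col-0, and was lower by 0.69 on the log2 scale (log2 difference -0.69, SE 0.17, adjusted p = 0.0176), where 6.77% of all probe sets were lower. That call ended without slr-1 0 h replicate 2, the array with the GAPDH ratio of 1.16 (-0.54, adjusted p = 0.125), or with the second Col-0 0 h array removed (-0.58, adjusted p = 0.135). It also ended with only these 2 groups in the fit (adjusted p = 0.0537). LHCB4.2 was lower in slr-1 at 0 h as well, by a log2 difference of -2.08 (SE 0.34, adjusted p = 0.00173), at 380 ± 122, against 1629 ± 91.4 in Col-0.

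At 0 h the differences of the other 5 members ran from -0.43 for TET7 (adjusted p = 0.238) to 0.31 for TET6 (adjusted p = 0.131). The comparison after 2 h of NAA uses the Col-0 2 h arrays, so it is not independent of how the family was chosen either. After 2 h of NAA TET3 was higher in slr-1 than in Col-0, with 3850.8 and 3522.1 against 2432.7 and 2753.7. The difference was 0.51 (SE 0.13, adjusted p = 0.0349), beside 2.68% of all probe sets higher. It passed under 15 of 23 other settings, and its adjusted p rose to 0.197 and 0.0998 when slr-1 2 h replicate 1 or 2 was left out, and to 0.278 and 0.0686 when Col-0 2 h replicate 1 or 2 was. Leaving out either Col-0 6 h NAA array gave 0.0522, the fit of these 2 groups alone 0.0670 and a fit without the variance trend 0.0726. TET2 at 0.65 (SE 0.21, adjusted p = 0.0934) and TET6 at 0.43 (SE 0.13, adjusted p = 0.0664) did not pass, and TET5, lower in slr-1 at 0 h, differed by -0.04 at 2 h (SE 0.17, 95% interval -0.41 to 0.32, adjusted p = 0.928).

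The comparisons with Col-0 after 6 h of NAA or mock are given without a test, since NAA against mock was taken to be the one behind the choice of the family and the others share its arrays. TET5 had 756.3 and 605.2 in Col-0 after 6 h of NAA, against 2296 and 2207.3 after mock (log2 difference -1.71, SE 0.17). TET2 had 295.9 and 398.5 after NAA, against 921.9 and 881.2 after mock (-1.34, SE 0.21), and TET3 had 1734.1 and 1726, against 3894.3 and 3913.5 (-1.17, SE 0.13). In all 3 genes the arrays of the groups did not overlap.

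TET7 had 288.7 and 386.2 in Col-0 after 6 h of NAA, against 586 and 495.7 after mock (-0.66, SE 0.23). TET8 had 8308.2 and 8221.8, against 10590.6 and 9307.6 (-0.26, SE 0.16). TET6 had 1379.2 and 1364.3, against 1977.8 and 1997.3 (-0.53, SE 0.13). Of the 6 members 5 lay past the threshold on the lower side, where 24.8% of all probe sets did, and nothing is read from that count. The arrays of all 6 did not overlap between NAA and mock, nor did those of 74.9% of all tested probe sets. In the same comparison LHCB4.2 differed by -3.62 (SE 0.34) and EXPA7 by -2.05 (SE 0.68).

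For TET6 the lower value after NAA than after mock went with a high value after mock. Mock was higher than 0 h by 0.61 (SE 0.13), with 1977.8 and 1997.3 against 1232.4 and 1363.9, while 6 h of NAA differed from 0 h by 0.08. For the other 5 members mock differed from 0 h by -0.36 (TET2) to -0.03 (TET7). Relative to 0 h, 6 h of NAA in Col-0 differed by -1.98 for TET5, -1.71 for TET2, -1.27 for TET3, -0.69 for TET7 and -0.37 for TET8, with SEs of 0.13 to 0.23. LHCB4.2 differed by -4.95 (SE 0.34) between these groups, and the part of such a change in the tetraspanin values was not tested.

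From 2 h to 6 h of NAA in Col-0 the members moved by unequal amounts. TET5 differed by another -0.95 (SE 0.17) and TET3 by -0.58 (SE 0.13). The arrays of 5 of 6 members did not overlap between these times, nor did those of 72% of all tested probe sets. TET2, the member with overlapping arrays, differed by -0.28 (SE 0.21). TET8, at 11510 and 11256.2 at 2 h, had 8308.2 and 8221.8 at 6 h, a difference of -0.46 (SE 0.16). Most of the difference of TET2 from 0 h was thus present at 2 h, while TET5 and TET3 differed further at 6 h.

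At 6 h of NAA all 6 members had a higher mean in slr-1 than in Col-0, from 0.05 for TET8 to 1.42 for TET2 on the log2 scale. The median was 0.57 over the members and 0.10 over all probe sets. The family was taken to be chosen on low values of these Col-0 arrays. A group set against them may therefore look higher, and nothing is read from the count. The share of all probe sets with a higher mean was not computed. TET2 had 800.3 and 1121.7 in slr-1, against 295.9 and 398.5 in Col-0. TET3 had 3657.5 and 3782.8, against 1734.1 and 1726, and TET5 had 954.2 and 1183.4, against 756.3 and 605.2. The arrays of 5 of 6 members, all but TET8, did not overlap between genotypes, nor did those of 70.4% of all probe sets in this comparison. The difference of response at 6 h was 1.80 for TET2 (SE 0.30), 1.33 for TET5 (SE 0.24), 0.99 for TET3 (SE 0.19), 0.85 for TET7 (SE 0.33), 0.20 for TET6 (SE 0.18) and 0.09 for TET8 (SE 0.23). The median over the 6 was 0.92, where that of all probe sets was 0.10, and the value of LHCB4.2 was 3.20 (SE 0.48).

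The order of the 7 groups differed between members. For TET2, TET3, TET5, TET7 and TET8 the lowest mean was that of Col-0 after 6 h of NAA, while for TET6 it was that of Col-0 at 0 h. Nothing is read from the low place of Col-0 after 6 h of NAA, a group taken to be behind the choice. For TET2 the groups from slr-1 0 h (mean 890) through Col-0 mock (902) and slr-1 6 h (961) to Col-0 0 h (1167) each overlapped with the next. Below them slr-1 2 h (676) was apart, and the 2 Col-0 groups on NAA (423 at 2 h, 347 at 6 h) overlapped with each other. For TET5 the order from low to high was Col-0 6 h NAA, slr-1 6 h, slr-1 2 h, Col-0 2 h, slr-1 0 h, Col-0 mock and Col-0 0 h, and only slr-1 2 h and Col-0 2 h overlapped as neighbours. For TET8 each group overlapped with the next over the whole order, in which the highest mean was 1.38-fold the lowest.

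Over the 7 group means, the pair of members most alike was TET2 and TET3 (Pearson r = 0.92), followed by TET5 and TET7 (0.79), TET3 and TET5 (0.77) and TET2 and TET5 (0.76). TET6 was not like the others, with r between -0.09 and 0.38, its value with the relative TET5 being -0.02. These are descriptions over 7 points that share the same arrays. Among 8085 other tested probe sets with 1 gene, the closest pattern to TET2 was that of AT1G66180 (r = 0.996), to TET3 that of AT3G61960 (0.995) and to TET5 that of AT4G14100 (0.997). The closest to TET7 was AT3G10810 (0.985), to TET8 AT2G45820 (0.973) and to TET6 AT4G30650 (0.946). How high the closest value is for genes outside the family was not computed.

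**Figure D4:**
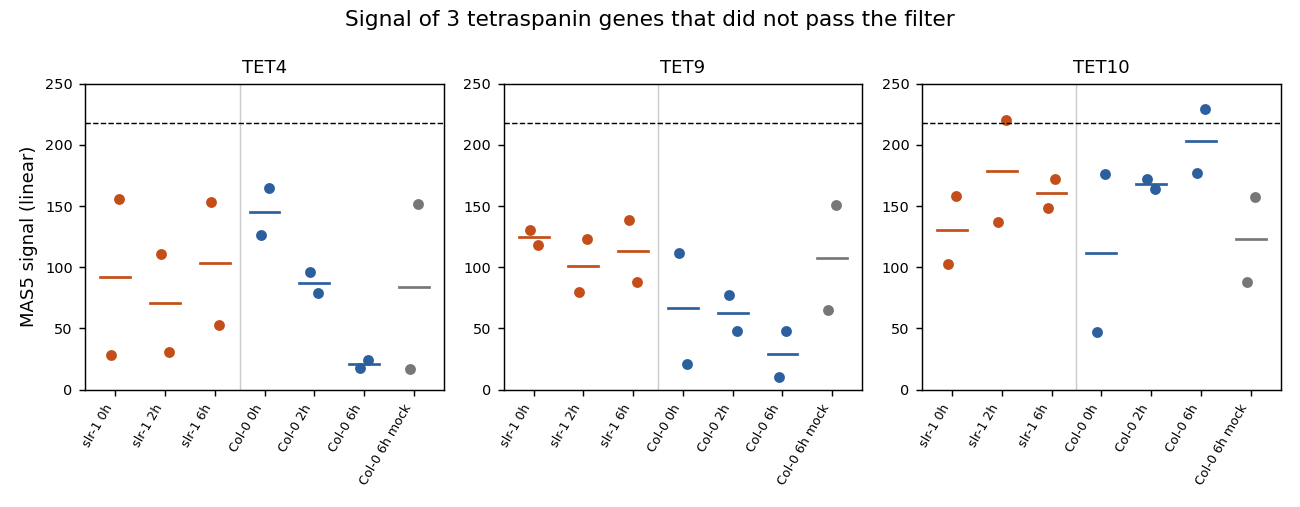
MAS5 signal (linear axis) of TET4, TET9 and TET10, with 1 point per array, a line at the mean of each group and a dashed line at the filter level of 218.1. All 14 arrays of TET4 and TET9 lie below the level, and 2 arrays of TET10 lie above it.

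TET4, TET9 and TET10 were too dim to test. TET4 (AT5G60220) had signals from 16.7 to 164.5. In Col-0 it had 126.5 and 164.5 at 0 h, 96.1 and 78.6 after 2 h and 17.7 and 24 after 6 h of NAA, while the 2 mock arrays, 16.7 and 151.5, covered nearly that whole range. The Col-0 arrays of the 3 times on NAA did not overlap, each later time being lower. Among all tested probe sets 34.1% were lower without overlap at 2 h against 0 h, and 38.6% at 6 h against 2 h. The SD between TET4 replicates was 68.7% of the mean, as a median over the 7 groups, so no decline is read from these values. In slr-1 the TET4 replicates lay far apart, with 28.4 and 156 at 0 h, 111 and 30.4 after 2 h and 153.4 and 53.1 after 6 h, and these times overlapped.

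TET9 (AT4G30430), a close relative of TET8, ran from 10.6 to 150.6. It had 138.8 and 88.3 in slr-1 after 6 h of NAA, against 10.6 and 47.8 in Col-0, and 130.8 and 118.2 in slr-1 at 0 h, against 111.5 and 21.2 in Col-0. TET9 lies near AT4G30450, the second protein-coding gene beyond it on the chromosome, which differed by -5.86 in Col-0 between 6 h of NAA and 0 h, whereas TET9 was below the filter level on every array. TET10 (AT1G63260) ran from 46.9 to 229, and the 2 arrays above 218.1 were of slr-1 2 h and Col-0 6 h NAA, each with its replicate below that level. In Col-0 after 6 h TET10 had 177.3 and 229 with NAA, against 87.9 and 157.5 with mock, the opposite direction to the 6 members above. In TET10 each group overlapped with the next in the order of means.

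Of the other 7 tetraspanin genes, TET11 to TET17, 6 had a probe set and 0 passed the filter. TET13 (AT2G03840), known for a role in root growth and lateral root development, ran from 30.2 to 172.7. TET14 exceeded 218.1 on 2 of 14 arrays, with a highest value of 319.1, and TET11, TET12, TET15 and TET16 on none. TRN1, the partner of TET1 in organ patterning, had no probe set named for it. Of 13 listed genes of extracellular vesicles and membrane traffic, 3 were measured, the endosomal GTPase ARA6 and the RNA helicases RH11 and RH37. None of these 3 passed in any of the 7 tested comparisons with limma, in which 1.22% to 17.6% of all probe sets passed, with at most 2 at an unadjusted p under 0.05 in a comparison. RH11 differed by 0.46 in slr-1 after 6 h (SE 0.16, adjusted p = 0.0743), and ARA6 by -0.35 in Col-0 after 2 h (SE 0.17, adjusted p = 0.183). After 6 h of NAA in Col-0, given without a test, both helicases were higher than after mock, RH11 by 1.02 (SE 0.16) and RH37 by 0.68 (SE 0.13), while ARA6 differed by -0.28 (SE 0.17). Against Col-0 at 0 h RH11 differed by 0.91, RH37 by 0.79 and ARA6 by -0.44. In slr-1 against Col-0 at 6 h RH11 differed by -0.58 and RH37 by -0.59.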

How the data were processed

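Transcript levels were measured on 14 Affymetrix ATH1 arrays, in 7 groups taken from the sample titles. The authors deposited 1 unlogged signal intensity per probe set and array, made with MAS5 per the submitters' processing notes (settings not given in the sources used here). Of 22810 probe sets 64 controls were left out. Members were matched through the array annotation by gene identifier, 1 probe set each; gene names are those of RefSeq. No sequences were used here.

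Probe sets were tested where both arrays of at least 1 group exceeded the pooled 40th percentile (218.1), which left 14882. Log2(signal + 18.9), with the pooled 10th percentile added, understates changes of dim genes. In R 4.3.3, limma 3.58.1 estimated each group's mean from all 14 arrays together and moderated the variances with a trend on signal (residual degrees of freedom 7, prior 6.57). P-values were adjusted by Benjamini-Hochberg over all tested probe sets, with a threshold of 0.05. There were 13 comparisons, 7 tested and 6 described; several share arrays, such as the 0 h groups. Exact permutation of 2 against 2 arrays cannot go below p = 0.333 and was not used. The number of arrays limits the precision.

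On simulated data for slr-1 6 h against 0 h (14882 probe sets, 100 of each size changed), 94% of 4-fold and 43% of 2-fold changes were found, with 7 false calls. In the data 14.2% of all probe sets passed in that comparison, far more than were changed in the simulation. The Benjamini-Hochberg cut was therefore stricter in the simulation, and these shares do not carry over to the data.

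The members, lists and tests were chosen with earlier results of these data known. The genes named are the members, the other tetraspanins, listed genes with a probe set, the gene most like each tested member and some chromosome neighbours of members; by the rule 2 like genes and all measured neighbours could be named, and those printed were chosen after their values were seen. Alternatives covered the added value, the filter, normalization, the variance trend, the arrays in the fit, a replicate block and each array left out.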

Additional observations from a re-analysis of the deposited data

Results flagged for a closer look

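TET7 was noted because its arrays moved in opposite directions in the 2 genotypes after 6 h of NAA. Both slr-1 arrays at 6 h (451 and 456.7) lay above both at 0 h (409.7 and 399.1), and both Col-0 arrays at 6 h (288.7 and 386.2) lay below both at 0 h (564.7 and 540.1). Among all tested probe sets 28.1% were higher without overlap in slr-1, and 42.7% were lower without overlap in Col-0. The share with both was not computed, so the pattern is not shown to be particular to TET7. The difference of response was 0.85 on the log2 scale (SE 0.33). This difference was not tested, since it uses the Col-0 6 h NAA arrays, and within slr-1 the change of TET7 did not pass (0.16, SE 0.23, limma adjusted p = 0.698).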

How the results depend on the processing

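Over 23 other settings, 14 of them with 1 array left out, the number of tetraspanin members past the threshold stayed at 3 for Col-0 2 h against 0 h, and at 0 for slr-1 2 h against 0 h, slr-1 6 h against 2 h and the difference of response at 2 h. With only the groups of the comparison in the fit it was 0 instead of 1 for slr-1 6 h against 0 h and for the genotypes at 0 h and at 2 h. At 2 h it was 0 also with no variance trend. With 1 array left out, these 3 counts ranged from 0 to 1. For the genotypes at 2 h this includes either Col-0 6 h NAA array, from outside the comparison (TET3 limma adjusted p = 0.0522 for each). The tetraspanin median for Col-0 6 h NAA against 0 h, -0.98, was -0.71 with no filter, where 9 members entered, and -1.27 with the filter at the pooled 60th percentile, where 5 did. Against mock the median of -0.91 was -1.17 with that stricter filter. No called value changed sign. Replicate numbers were shared between groups, but the differences between replicates 1 and 2 correlated over 0.1 in only 3 of 21 pairs of groups (median 0.01). An effect common to arrays of the same replicate number was thus small over all probe sets. Whether those samples were grown or processed together was not established. With the replicate block the counts of members stayed at 3, 0, 1, 0, 1, 1 and 0 over the 7 tested comparisons. With 2 arrays a group small changes of members may have gone undetected. In the simulation of slr-1 6 h against 0 h, 43% of 2-fold changes were found. That simulation changed far fewer probe sets than passed in the data, so the 43% is not the share found in these data.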

Other observations

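EXPA7, an expansin gene of root hairs, was higher on the replicate 1 array than on the replicate 2 array in all 7 groups, as were 0.611% of the tested probe sets. Its signals were 77.7 and 40.2 in slr-1 at 0 h and 284.7 and 79.6 in Col-0 at 0 h, while both Col-0 mock arrays, 547.3 and 502, lay above every other array. None of the 9 measured tetraspanin genes of the report had replicate 1 higher in all groups, the count of such groups being 1 (TET10) to 5 (TET2, TET7 and TET8) of 7.

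AT4G28030, the second protein-coding gene before TET7 on the chromosome, fell in slr-1 after 6 h by 0.54 (limma adjusted p = 0.0238), where TET7 differed by 0.16. ACT11, the second gene beyond TET6, differed by -0.04 in the same comparison (adjusted p = 0.952).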
